A study of Mus musculus with 11 samples.

Results

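The lumbar spinal cord of mice carrying a mutant mitofusin, MFN2-R94Q, was compared with that of nontransgenic mice (nTg), 3 libraries against 3. All mice were C57BL/6 and 10 months old, and poly(A) RNA was sequenced from each cord. The study holds 11 libraries, and the other 5, from mice that carried MFN1 as well as MFN2-R94Q, enter here only through the estimate of the spread of each gene. The members of the comparison are the gene rows with at least 0.5 RPKM in 3 or more of the 11 libraries, 14347 of the 20888 deposited rows. RPKM is the number of reads of a gene per kilobase of its length and per M reads of the library. Per the labels the groups differ in the MFN2-R94Q transgene, which nTg mice lack. The sources used here name neither the promoter, copy number or species of the transgenes nor the sex of the mice or a batch.

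Mitofusins are GTPases of the outer mitochondrial membrane that tether neighbouring mitochondria and drive their fusion. Dominant mutations of MFN2 cause Charcot-Marie-Tooth disease type 2A, in which the longest motor and sensory axons degenerate first. The lumbar cord holds the cell bodies of the motor neurons of the hindlimb, their synapses, long white matter tracts with oligodendrocytes, astrocytes and microglia, so RNA of the whole tissue mixes all of these cells. Fewer cells of a type and less RNA of a gene per cell cannot be told apart in such data.

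Library depth, recovered from the size of the smallest steps in the values, was 34.6 to 53.9 M reads in nTg and 30.7 to 52.3 M in MFN2-R94Q. Markers of lumbar cord were present: Chat, the acetylcholine synthesis enzyme of motor neurons, stood at 9.93 to 11.9 RPKM over the 6 libraries and the lumbar Hox gene Hoxc10 at 26.6 to 32.9. Markers of other tissues were low. Of 17 deposited muscle and fat genes 1 passed the filter (Mylpf, 0.663 to 1.15 RPKM), and 5 of 15 sensory ganglion genes did. The 3 MFN2-R94Q animals were less alike than the nTg animals. The median SD of a gene on the log2 scale was 0.0839 in MFN2-R94Q and 0.0587 in nTg. MFN2-R94Q replicate 2 stood 1.5-fold or more from the nTg mean in 326 genes above and 362 below, against 49 and 67 in replicate 1 and 74 and 62 in replicate 3.

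The mouse mitofusin genes did not pass the test. Mfn2 (chr4:147873586-147904909, GRCm38.p6) was at 45.6, 47.2 and 44.8 RPKM in the nTg libraries and at 44.9, 47.7 and 46.4 in MFN2-R94Q. The groups overlapped, and the ratio was 1.01 (limma adjusted p = 0.83). Mfn1 (chr3:32529443-32579225) was at 24.98, 24.2 and 25.5 RPKM in nTg and 26.5, 26.6 and 25.8 in MFN2-R94Q. Its groups did not overlap, but at 1.06-fold it did not pass either (adjusted p = 0.13). Reads of a transgene of another species would not have to map to these rows, so the rows do not check the labels.

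Differences were tested with limma on log2(RPKM + 0.5), with the 11 libraries fitted together, two-sided, with Benjamini-Hochberg adjustment over all 14347 genes and a threshold of 0.05. A gene past the threshold is called higher or lower in MFN2-R94Q. Fold changes are on that log2 scale, so those of weakly expressed genes come out too small. Because the MFN2-R94Q animals were unequal, a stricter set is also given: a gene "called in every run" kept its call and sign when the 6 libraries were fitted alone and when each of the 6 was left out in turn. The fit called 2561 genes (17.9%), of which 1076 (7.5%) were higher and 1485 (10.4%) lower. In every run 725 genes (5.05%) were called, 237 (1.65%) higher and 488 (3.4%) lower. The groups did not overlap in 5119 genes (35.7%). Without nTg replicate 1, 2 or 3 the fit called 740, 465 and 633 genes higher and 949, 746 and 1050 lower, and without MFN2-R94Q replicate 2 it called 621 and 1000.

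Most of these differences were small. The median called rise was 1.20-fold and the median called fall was to 0.839 of the nTg level. At 1.5-fold or more 80 genes were higher and 91 lower, and at 2-fold or more 17 and 11. Lower calls gathered among abundant transcripts. Of the 3587 most abundant genes, at 17.7 RPKM or more, 209 were called higher and 654 lower, whereas of the 3587 least abundant 239 were higher and 157 lower.

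**Figure D1:**
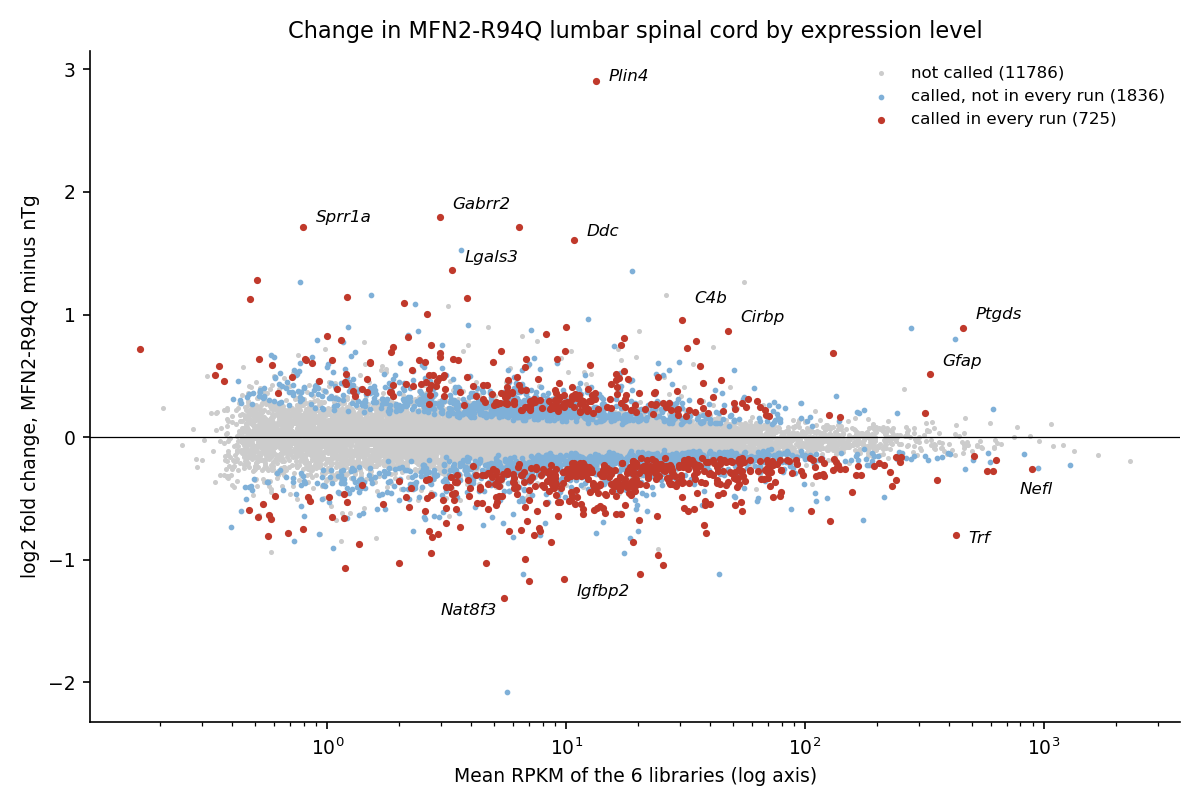
Each point is 1 of the 14347 tested genes, by its mean RPKM over the 6 libraries (log axis) and its log2 fold change, MFN2-R94Q minus nTg. The 725 genes called in every run are dark red, the other 1836 called genes blue and the 11786 genes not called grey; Plin4 stands highest at a log2 fold change of 2.90, and most called genes lie within 1.5-fold of no change.

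Genes of reactive astrocytes were the list with the most members higher in every run. Of 35 reactive astrocyte genes 14 were called higher and none lower, 9 of them in every run, with a median log2 fold change of 0.30 (all tested genes, -0.002). Gfap, the intermediate filament of astrocytes, was at 279, 256 and 287 RPKM in nTg and 364, 422 and 390 in MFN2-R94Q, a 1.43-fold rise (log2 0.52, SE 0.059, adjusted p = 0.0010). Vim, a second intermediate filament that reactive astrocytes turn on, rose 1.72-fold, from 24.0 to 26.4 RPKM in nTg to 38.6, 53.4 and 41.2. Cd109, a surface protein anchored to the membrane by a lipid, rose 2.20-fold, from 0.523 to 0.595 RPKM to 1.501, 2.61 and 1.485. In each of these genes every MFN2-R94Q animal stood above every nTg animal, which was a condition of their choice. Serpina3n, Osmr (the oncostatin M receptor), Ptx3, Ggta1 and the ferroxidase gene Cp were also higher in every run, by 1.39-fold to 1.53-fold. S100a6, a small calcium-binding protein, rose 1.68-fold (12.0, 14.3 and 11.2 RPKM against 21.8, 22.5 and 19.5). Agt, which encodes angiotensinogen, made in the cord by astrocytes, rose 1.61-fold to 130, 204 and 154 RPKM from 93.5 to 104.

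The genes of resting astrocytes moved both ways. Of 26 members 4 were called higher and 6 lower, and the 3 called in every run were all lower. The higher calls were 2, 1 and 2 without nTg replicate 1, nTg replicate 2 or MFN2-R94Q replicate 2, and the lower calls 3 without nTg replicate 2 or 3. The 3 were Slc7a10, a neutral amino acid transporter (to 0.719 of the nTg level), S1pr1, a sphingosine phosphate receptor (0.776), and Kcnj10, the channel that clears potassium from around neurons (0.838). Kcnj10 was at 154, 151 and 151 RPKM in nTg and 132, 118 and 133 in MFN2-R94Q, so the groups were apart by more than the nTg spread. S100b, a calcium-binding protein of astrocytes and oligodendrocytes, fell from 386, 422 and 400 RPKM to 337, 287 and 325.

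Microglial genes were followed in a list for the disease associated state and a list of general markers. Of 31 disease associated microglia genes 12 were called higher and 1, Fabp5, lower, with 7 and 1 in every run and a median of 0.15. Of 27 markers of microglia in general 2 were higher and 3 lower (18.5%, against 17.9% of all tested genes), with a median of -0.01. Leaving out 1 library gave 1 to 4 higher and 1 to 5 lower. Lgals3, which encodes the carbohydrate-binding protein galectin-3 of activated microglia, had the smallest p of all genes named here. It was at 1.58, 1.58 and 1.74 RPKM in nTg and 4.27, 5.60 and 5.15 in MFN2-R94Q, 2.57-fold higher (SE 0.094 on the log2 scale, adjusted p = 3.4e-05). Lyz2 (lysozyme), Cst7 (a cystatin), Itgax (an integrin), Gpnmb and the chemokine gene Ccl4 rose by 1.41-fold to 1.56-fold, and the lysosomal membrane gene Cd68 rose 1.29-fold. Gpnmb averaged 0.505 RPKM in nTg and 0.917 in MFN2-R94Q. Ccl4 averaged 0.295 and 0.74, and its nTg values all lay under the 0.5 RPKM of the filter. No nTg library therefore counted towards the entry of Ccl4 into the test. With a filter of 1 RPKM in 6 libraries 8 members of the list were called higher. Of the general markers 1 was lower and 1 higher in every run. Selplg, a selectin ligand of resting microglia, fell to 0.758, and the protease gene Ctss rose 1.22-fold. The summed RPKM of the 27 general markers was 366 to 391 in nTg and 376 to 421 in MFN2-R94Q, so these sums overlapped. That of the 31 disease associated genes was 4070 to 4430 in nTg and 3810 to 4140 in MFN2-R94Q, so it was not higher.

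**Figure D2:**
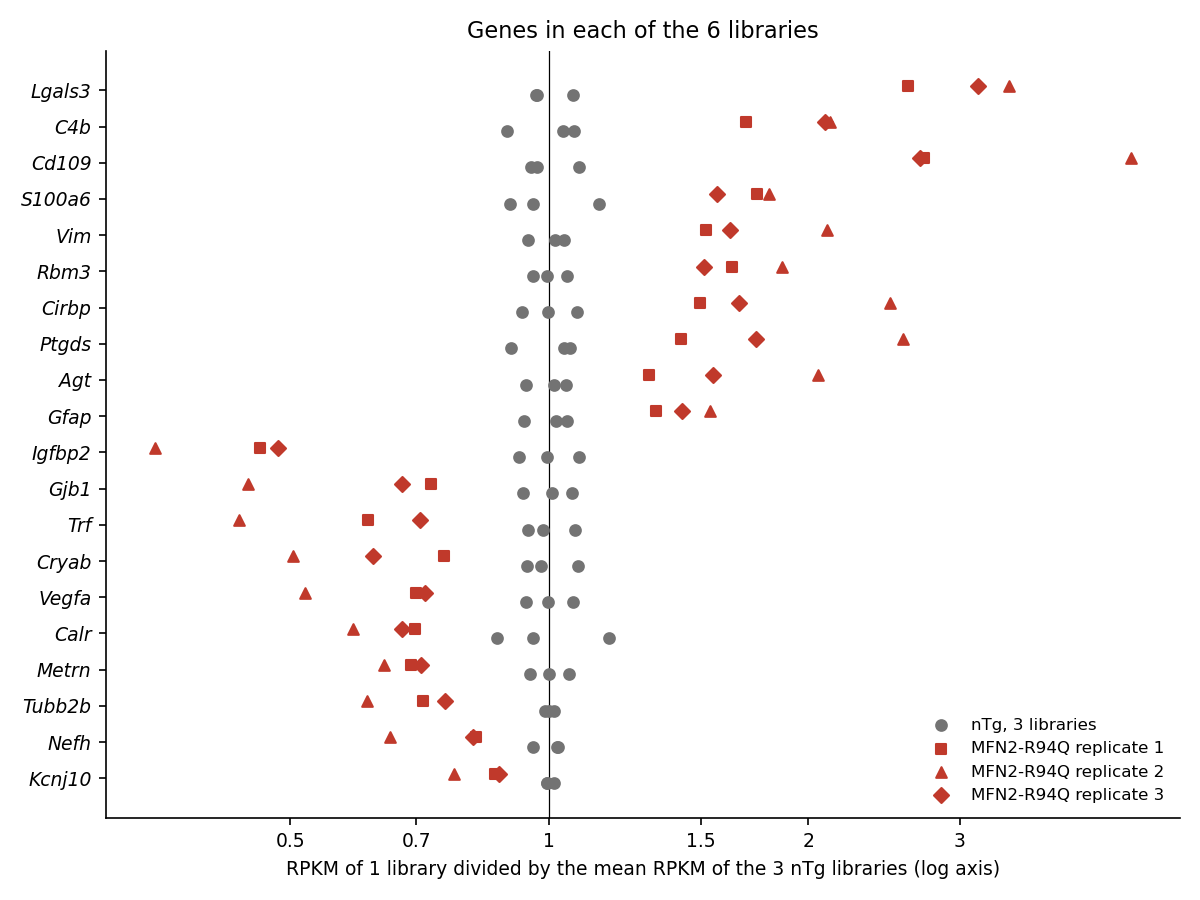
Each row is 1 gene; points show the RPKM of each library divided by the nTg mean (log axis), with grey circles for the 3 nTg libraries and red squares, triangles and diamonds for MFN2-R94Q replicates 1, 2 and 3. The 3 MFN2-R94Q libraries lie on 1 side of all 3 nTg libraries in each of the 20 genes, and replicate 2 lies farthest from nTg in each of them. Most of the 20 were taken from genes whose groups do not overlap, as in 35.7% of all tested genes, so this separation was set by choice.

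The called genes of the axon cytoskeleton were all lower. Neurofilaments are the fibres that set the calibre of large axons. Of 20 neurofilament and axon cytoskeleton genes 9 were called lower and none higher, 6 in every run, with a median of -0.14, and 5 of the 20 had a positive change. Nefl, the light subunit and among the most abundant transcripts of the cord, was at 948, 998 and 972 RPKM in nTg and 855, 745 and 835 in MFN2-R94Q, a fall to 0.834 (adjusted p = 0.0055). The medium subunit Nefm fell from 612, 650 and 641 RPKM to 559, 470 and 544. The heavy subunit Nefh fell from 251, 269 and 269 RPKM to 216, 172 and 214, which is 0.760 of the nTg level. Ina and Prph, further filament subunits that assemble with them, fell to 0.875 and 0.852, and Dpysl2, a regulator of microtubule assembly, to 0.867. Replicate 2 was lowest for the light, medium and heavy subunits, but all 3 animals lay below the nTg range, a condition of their choice.

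Tubulins, the building blocks of microtubules, were mostly lower. Of 14 tested tubulin genes 10 were lower and none higher, 6 of them in every run, and the median was -0.19, with the 3 animals close together at -0.18, -0.19 and -0.17. Tubb2b, a beta tubulin of growing neurons, was at 64.8, 63.2 and 63.9 RPKM in nTg and 45.7, 39.2 and 48.4 in MFN2-R94Q (0.694, adjusted p = 0.00091). Tuba1a fell from 671, 683 and 661 RPKM to 593, 505 and 572, and Tuba1b from 666, 693 and 661 to 598, 587 and 592. Tuba4a and Tubb4b fell to 0.851 and 0.822. Tubulin genes are close copies, so the division of reads among them is uncertain. Without nTg replicate 2 the lower calls were 6.

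Motors that run on microtubules changed in a few members. Of 55 kinesin, dynein and adaptor genes 8 were lower and 3 higher, 5 and 1 in every run, at a median of -0.03. The share called in either direction was close to the 17.9% of all tested genes. Without nTg replicate 2 the higher calls were 1. Bicd2, the adaptor that links dynein to its cargo, fell to 0.771 (19.8, 19.6 and 19.9 RPKM against 15.9, 13.6 and 16.0). The dynein light chain gene Dynll1 fell to 0.695, Dynlrb1 and the dynactin gene Dctn3 to 0.862 and 0.869, and the kinesin light chain gene Klc4 to 0.829. Kif17, a kinesin of dendrites, rose 1.39-fold.

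Motor neuron markers were lower in 7 of 25 cases and higher in 1, with 3 and 1 in every run and a median of -0.06. Prph was at 37.9, 37.9 and 38.8 RPKM in nTg and 33.5, 31.3 and 32.7 in MFN2-R94Q. Mmp9, a metalloprotease of fast motor neurons, fell to 0.851, and Chodl, another fast motor neuron marker, to 0.664 (15.9, 15.5 and 15.7 RPKM against 12.9, 7.98 and 10.4). Calca, the gene of calcitonin and its related peptide, which motor neurons raise after axon injury, rose 1.33-fold, from 12.5 to 14.8 RPKM to 16.8 to 20.2. Chat was lower in the fit of all libraries, at 0.891, but not in every run. Without nTg replicate 2 the lower calls among motor neuron markers were 3.

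Of 28 axon injury and regeneration genes 2 were higher and 4 lower (21.4%, against 17.9% of all tested genes). Sprr1a was the 1 gene called in every run. The lower calls were 2 without nTg replicate 1 and 0 without nTg replicate 2, and the higher calls were 1 without nTg replicate 2 or MFN2-R94Q replicate 2 and 4 without MFN2-R94Q replicate 1. Sprr1a, a cornified envelope protein that injured neurons make, was at 0.0703, 0.0872 and 0.146 RPKM in nTg and 1.45, 1.39 and 1.59 in MFN2-R94Q. The 3 MFN2-R94Q values were close together and far above the nTg range. All nTg values of Sprr1a lay under the RPKM level of the filter, so no nTg library counted towards its entry into the test. The fitted rise was 3.29-fold (adjusted p = 0.0026), understated at these low levels. Atf3, the transcription factor gene of injured neurons, rose 1.34-fold without passing in every run, and Jun, a factor that acts with it, fell to 0.774, also not in every run.

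Ion channel genes were called in both directions. Of 60 potassium channel genes 8 were lower and 4 higher, at a median of -0.02. The higher calls were 2, 1 and 0 without nTg replicate 1, 2 or 3 and 0 without MFN2-R94Q replicate 2, and the lower calls were 5 without nTg replicate 3. In every run 4 were lower: Kcnj10 and Kcnj14, inward rectifiers, Kcng4, a modifier subunit of voltage-gated channels, and Kcnk12, a background leak channel, at 0.748 to 0.838 of nTg. Of 34 sodium, calcium and HCN channel genes 5 were higher and 3 lower (23.5%, against 17.9% of all tested genes), at a median of 0.00. The 3 lower genes were called in every run, and none of the 5 higher genes was; leaving out any 1 of the 6 libraries gave 0 to 3 higher calls. Hcn2, a pacemaker channel opened by hyperpolarization, was at 90.0, 90.2 and 95.0 RPKM in nTg and 66.6, 57.7 and 74.1 in MFN2-R94Q (0.719, adjusted p = 0.0031). Its relative Hcn3 fell to 0.808 and the calcium channel gamma subunit Cacng8 to 0.799.

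Few genes of transmitter release and reception were called. Of 38 synaptic vesicle and release genes 3 were higher and 2 lower, none in every run, and leaving out 1 library gave 0 to 4 higher and 0 to 2 lower. Among 25 glutamate receptor genes Grin3b, an NMDA receptor subunit, fell to 0.784, and among 19 GABA and glycine receptor genes Gabrr2, a rho subunit of the GABA receptor, rose a fitted 3.46-fold; no other member of either list was called in every run. Gabrr2 was at 0.762, 1.19 and 0.682 RPKM in nTg and 2.67, 9.68 and 2.73 in MFN2-R94Q. All 3 animals were higher, replicate 2 by far the most, and without it the rise was 2.35-fold. Of 26 neuropeptide genes 6 were lower and 1 higher, 1 each in every run, at a median of -0.10. The lower calls were 3 without nTg replicate 1, 1 without nTg replicate 2 and 2 with trends by transcript length and GC content removed. Cck, the cholecystokinin gene, fell to 0.855 in every run but did not pass with these trends removed (adjusted p = 0.082). Of 24 immediate early genes 3 were lower and 1 higher (16.7%, against 17.9% of all tested genes), at a median of -0.01. Leaving out 1 library gave 0 to 2 higher and 2 or 3 lower. The 2 called in every run were both lower. Arc, a synaptic plasticity gene, fell to 0.553 (11.1, 11.4 and 11.2 RPKM against 7.66, 4.33 and 6.46) and Egr3 to 0.635.

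Most myelin genes were lower. Of 35 myelin genes 22 were called lower and 2 higher, 7 and 1 in every run, at a median of -0.35. Trf, the transferrin that oligodendrocytes make and load with iron, had the largest fall in RPKM of all genes named here, from 513, 582 and 534 to 334, 237 and 384 (0.576, adjusted p = 0.0031). Gjb1, the connexin that is mutated in X-linked Charcot-Marie-Tooth disease, fell from 43.5, 49.6 and 47.0 RPKM to 34.0, 20.8 and 31.5 (0.608). All 3 animals lay below nTg in both genes, and replicate 2 was the lowest. The lineage factors Olig1 and Olig2 fell to 0.735 and 0.650, and Mag, a myelin adhesion protein, to 0.783. Gpr62, an orphan receptor of oligodendrocytes, fell to 0.641 (10.5, 12.2 and 11.3 RPKM against 6.62, 6.84 and 7.85). Tspan2, a tetraspanin of myelin, was the 1 member higher in every run, at 1.21-fold. The myelin median was -0.59 in replicate 2 against -0.24 and -0.18 in replicates 1 and 3, and -0.24 in the fit without replicate 2. The lower calls were 12 without nTg replicate 2 and 14 without nTg replicate 3. Of 18 precursor genes 6 were lower and 2 higher. Without nTg replicate 2 these counts were 3 and 1, without nTg replicate 3 they were 4 and 0, and without MFN2-R94Q replicate 2 or 3 the higher calls were 1. Olig1 and Bcas1, a marker of cells starting to myelinate, fell in every run.

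Myelin is rich in cholesterol and in sphingolipids, and the called synthesis genes of both were all lower. Of 25 cholesterol synthesis genes 16 were lower and none higher, 6 in every run, at a median of -0.26. Fdft1, squalene synthase, the first step committed to sterols, was at 30.4, 30.4 and 30.7 RPKM in nTg and 25.9, 23.3 and 26.5 in MFN2-R94Q (0.828, adjusted p = 0.0054). Every MFN2-R94Q animal lay below every nTg animal, and Idi1, Msmo1, Nsdhl and Dhcr7 fell to 0.756 to 0.822. Of 29 fatty acid and sphingolipid synthesis genes 14 were lower and none higher, 5 in every run, and 7 had a positive change. Fa2h, which hydroxylates the fatty acids of myelin galactolipids, fell from 46.1, 48.0 and 47.5 RPKM to 34.4, 25.7 and 37.8, and Gal3st1, which makes sulfatide, to 0.733. Elovl5 (fatty acid elongation), Scd1 (desaturation) and Acss2 (acetyl-CoA synthesis) fell to 0.731, 0.883 and 0.861, and the citrate carrier gene Slc25a1, which supplies the cytosol with citrate for these pathways, to 0.822. Without nTg replicate 1 or 3 the lower cholesterol genes were 10 each. Without nTg replicate 1, nTg replicate 2 or MFN2-R94Q replicate 2 the lower fatty acid and sphingolipid genes were 8, 9 and 9.

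**Figure D3:**
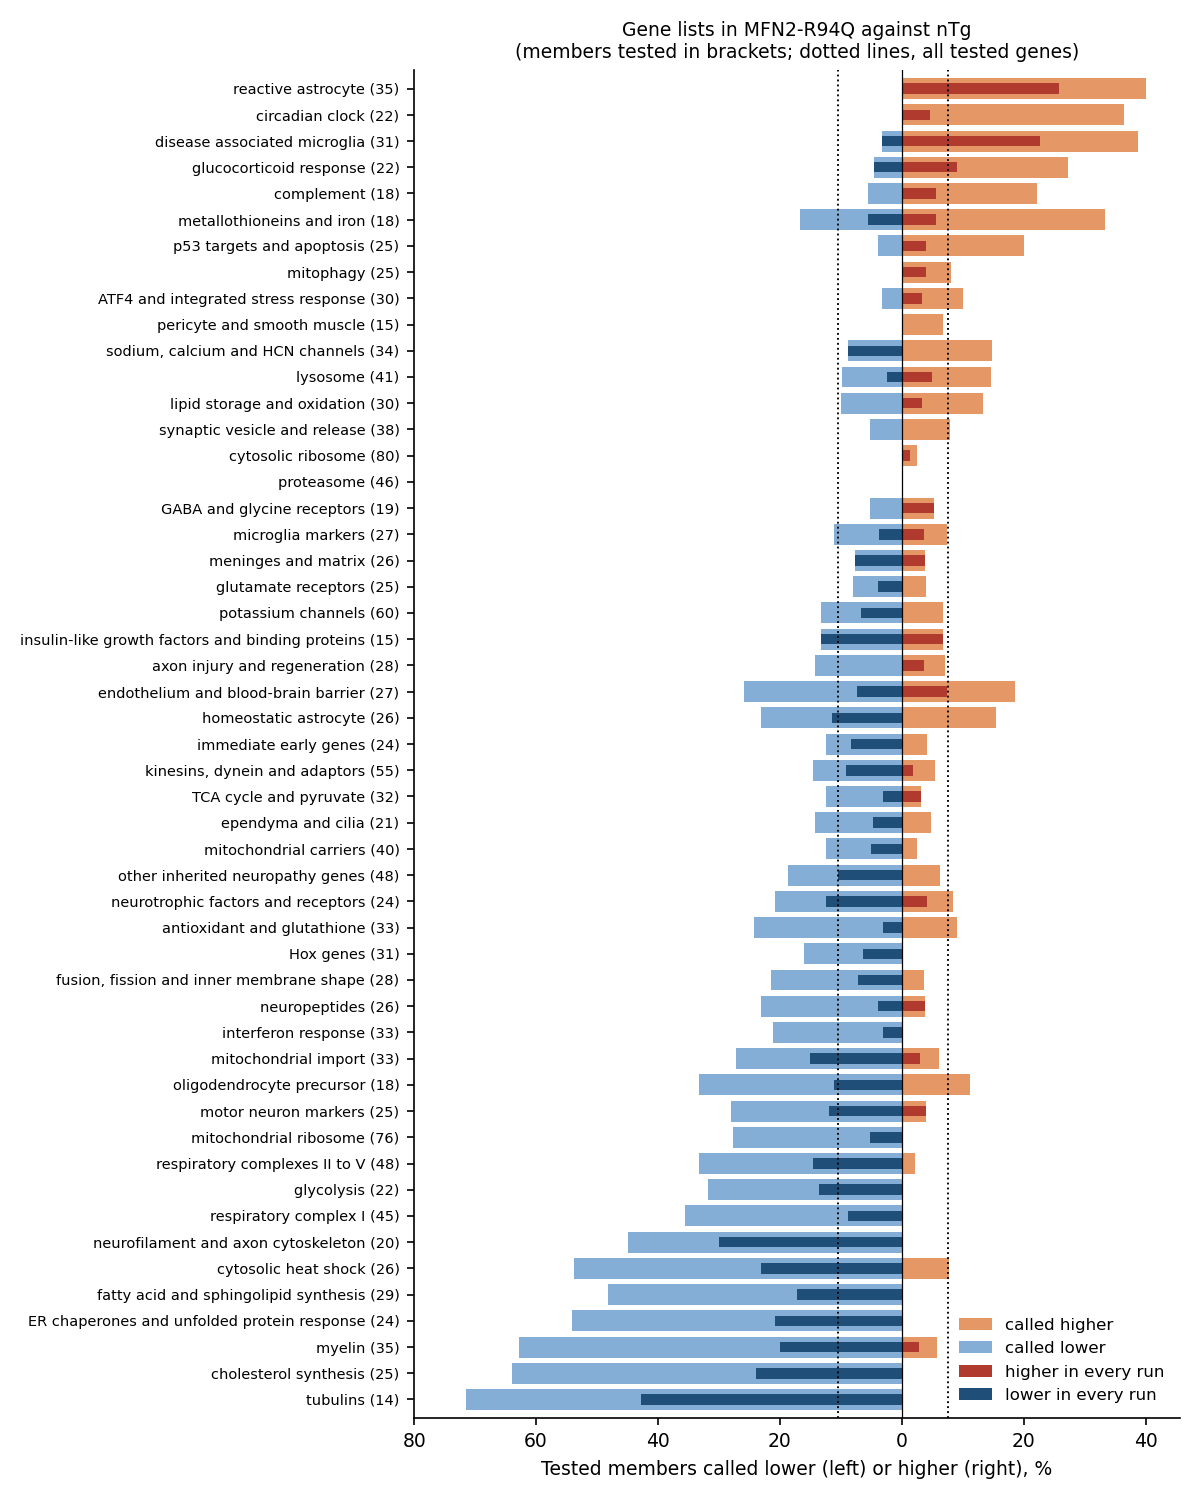
Bars give the percentage of tested members of each list called lower (left, blue) or higher (right, orange) in MFN2-R94Q, with narrow dark bars for members called in every run and the number of tested members in brackets; dotted lines mark all tested genes, 10.4% lower and 7.5% higher. Tubulins, with 10 of 14 members lower, lie at the bottom and reactive astrocyte genes, with 14 of 35 higher, at the top.

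Chaperone genes that passed the test were nearly all lower, in the endoplasmic reticulum and in the cytosol. Of 24 endoplasmic reticulum chaperone and unfolded protein response genes 13 were lower and none higher, 5 in every run, at a median of -0.23. Promoters of Calr, Creld2 and Pdia6 are shown because these 3 fell in every run and each holds an ER stress element, the site through which ATF6 drives such genes. They are the 250 bases before the RefSeq start on GRCm38.p6, 5′ to 3′ on the strand of the gene, with the element in capitals: CCAAT and CCACG with 9 bases between them, on either strand.
Calr, chr8:84846932-84847181, minus strand: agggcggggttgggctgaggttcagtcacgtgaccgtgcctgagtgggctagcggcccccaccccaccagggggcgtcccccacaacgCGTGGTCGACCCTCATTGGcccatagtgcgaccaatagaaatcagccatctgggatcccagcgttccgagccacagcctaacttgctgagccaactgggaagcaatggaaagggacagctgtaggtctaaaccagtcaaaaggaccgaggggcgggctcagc
Creld2, chr15:88819396-88819645, plus strand: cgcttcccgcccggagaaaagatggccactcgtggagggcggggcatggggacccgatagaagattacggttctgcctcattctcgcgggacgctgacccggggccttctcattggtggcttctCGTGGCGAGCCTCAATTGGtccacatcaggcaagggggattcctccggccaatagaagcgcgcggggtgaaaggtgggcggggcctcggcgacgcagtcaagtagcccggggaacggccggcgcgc
Pdia6, chr12:17266339-17266588, plus strand: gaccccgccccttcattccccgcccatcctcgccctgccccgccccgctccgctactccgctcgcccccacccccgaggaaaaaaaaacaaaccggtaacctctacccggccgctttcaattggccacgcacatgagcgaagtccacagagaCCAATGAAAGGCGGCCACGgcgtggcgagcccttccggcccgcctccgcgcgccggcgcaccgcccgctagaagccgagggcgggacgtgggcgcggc

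The element starts 162, 126 and 98 bases before the start in the 3 genes. In windows that reach to 50 bases after the start it was found in 8 of the 21 list members with a RefSeq promoter, 5 of them among the 11 lower members, in 0.119% of all 32851 RefSeq promoters and in 0.175% of those of the 10887 tested genes with one. No match was found for Pdia4, which also fell in every run. A part of the element in these falls was not tested. Calr, a calcium-binding chaperone, was at 122.8, 151 and 111 RPKM in nTg and 89.5, 75.8 and 86.5 in MFN2-R94Q (0.659, adjusted p = 0.0034). Creld2, a secreted chaperone-like protein, fell from 8.64, 11.2 and 8.04 RPKM to 5.86, 5.84 and 5.98. The disulfide isomerases Pdia6 and Pdia4 and the stress-induced secreted factor Manf fell to 0.714, 0.723 and 0.687. The 3 MFN2-R94Q animals had nearly equal medians over this list, -0.22, -0.22 and -0.21, and here it was the nTg animals that differed, from -0.12 in replicate 3 to 0.11 in replicate 2. Without nTg replicate 2 the lower calls were 5.

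Of 26 cytosolic heat shock genes 14 were lower and 2 higher, 6 lower in every run, at a median of -0.24. Cryab, a small heat shock protein abundant in oligodendrocytes and astrocytes, fell from 154, 170 and 148 RPKM to 119, 79.2 and 98.0 (0.621, adjusted p = 0.0033). Hsf1, the transcription factor that drives heat shock genes, was itself lower, at 14.4, 15.3 and 14.3 RPKM in nTg and 11.2, 10.5 and 11.9 in MFN2-R94Q. The co-chaperone genes Stip1, Ahsa1 and Bag3 and the mitochondrial Hspe1 fell to 0.818 to 0.835. The heat shock element GAANNTTC, read on both strands, was in the promoters of 11 of the 20 members with one, 6 of the 10 lower members and both higher members among them. It was in 7.86% of all promoters and 7.08% of those of tested genes. Without nTg replicate 1 or 2 the lower calls were 8 and 7, and without any 1 nTg library or MFN2-R94Q replicate 2 the higher calls were 1. The 46 proteasome genes had no limma call in either direction; at an unadjusted p under 0.05, 3 were higher and 1 lower, and 3 were called higher after quantile normalization. The most abundant, Psmc5, was at 0.974 of nTg.

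Both cold-inducible RNA-binding protein genes were higher. Rbm3 and Cirbp are known for rising with mild cooling. Rbm3 was at 24.0, 23.1 and 25.3 RPKM in nTg and 39.3, 45.0 and 36.4 in MFN2-R94Q, 1.65-fold higher (log2 0.72, SE 0.068, adjusted p = 0.00062). Cirbp was at 30.6, 35.5 and 32.8 RPKM in nTg and 49.3, 82.1 and 54.8 in MFN2-R94Q, 1.83-fold higher (adjusted p = 0.0037). In both genes every MFN2-R94Q animal stood above every nTg animal, and the call held in every run. Both were conditions of their choice.

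Nuclear genes of the respiratory chain that passed the test were, with 1 exception, lower, by small amounts. Of 45 respiratory complex I genes 16 were lower and none higher, 4 in every run, at a median of -0.15. Of 48 genes of complexes II to V 16 were lower and 1 higher, 7 lower in every run, at a median of -0.12. The subunit gene Ndufa3 was at 168, 158 and 157 RPKM in nTg and 134, 132 and 137 in MFN2-R94Q (0.836), and the assembly factor gene Ndufaf2 fell to 0.789. Uqcrq of complex III was at 135, 129 and 131 RPKM against 104, 105 and 111, and its neighbour in the complex Uqcr11 fell to 0.803. Of complex V, Atp5d, Atp5g1, Atp5j2 and Atp5l fell to 0.809 to 0.865. The complex I median was alike in the 3 animals, -0.14, -0.13 and -0.13. With trends by transcript length and GC content removed the medians were -0.10 and -0.07. Without nTg replicate 1 or 2 the lower complex I genes were 8 each, and without nTg replicate 1, nTg replicate 3 or MFN2-R94Q replicate 2 those of complexes II to V were 10 each.

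Some genes of mitochondrial protein synthesis and import were also lower. Of 76 mitochondrial ribosome genes 21 were lower and none higher, 4 in every run (Mrps21 at 0.755, Mrpl34 at 0.787, Mrpl42 at 0.815 and Mrpl12 at 0.866), with a median of -0.09 that was -0.05 with the length and GC trends removed. Their lower calls were 7 without nTg replicate 1 or 2, 13 without nTg replicate 3 and 10 without MFN2-R94Q replicate 2. Of 33 import genes 9 were lower and 2 higher, 5 and 1 in every run, with a median of -0.12 (-0.07 with the trends removed). The lower import calls were 5 without nTg replicate 1, and the higher calls 1 without nTg replicate 2 or MFN2-R94Q replicate 2. Tomm20, the receptor that recognises presequences on the outer membrane, rose 1.19-fold (60.2, 59.9 and 58.4 RPKM against 70.9, 74.0 and 67.6). The channel relative Tomm40l, the small outer membrane subunits Tomm5 and Tomm7, the cytosolic helper Tomm34 and Timm17b of the inner membrane fell to 0.762 to 0.872. By contrast, of 80 cytosolic ribosome genes 2 were higher and none lower, with a median of 0.00 (3 higher and 2 lower without MFN2-R94Q replicate 2, 1 higher without nTg replicate 2); Rps15a rose 1.13-fold in every run, and 8 members were higher after quantile normalization.

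Of 28 genes that shape mitochondria 6 were lower and 1 higher, with a median of -0.01. Chchd3, a subunit of the complex that forms cristae junctions, fell to 0.806, and Inf2, a formin that helps fission and is itself a neuropathy gene, to 0.766; these were the 2 members called in every run. Of 40 mitochondrial carrier genes 5 were lower and 1 higher (15.0%, against 17.9% of all tested genes). Slc25a1 and the calcium-regulated Slc25a25 fell in every run, to 0.822 and 0.865. Of 25 mitophagy genes 2 were higher and none lower, and Optn, a receptor that marks damaged mitochondria for autophagy, was the 1 called in every run, at 1.24-fold (11.5, 12.0 and 11.7 RPKM against 15.0, 15.6 and 13.5). Of 32 TCA cycle and pyruvate genes 4 were lower and 1 higher (15.6%, against 17.9% of all tested genes). Idh2, a mitochondrial isocitrate dehydrogenase, rose 1.39-fold and the pyruvate carrier gene Mpc2 fell to 0.819 in every run. Of 22 glycolysis genes 7 were lower and none higher, 3 in every run. Ldha, which makes lactate, fell from 42.2, 42.4 and 38.4 RPKM to 30.8, 27.5 and 31.0, and Pfkp and Tpi1 fell to 0.874 and 0.896. Among shape genes the lower calls were 3 without nTg replicate 1, and among carriers 2 without nTg replicate 1 or 2 and 3 without nTg replicate 3 or MFN2-R94Q replicate 2. The TCA list had 1, 2 and 2 lower calls without nTg replicate 1, nTg replicate 2 or MFN2-R94Q replicate 2, glycolysis had 4 without nTg replicate 2 or MFN2-R94Q replicate 1, and mitophagy had 4 higher and 3 lower without MFN2-R94Q replicate 1.

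**Figure D4:**
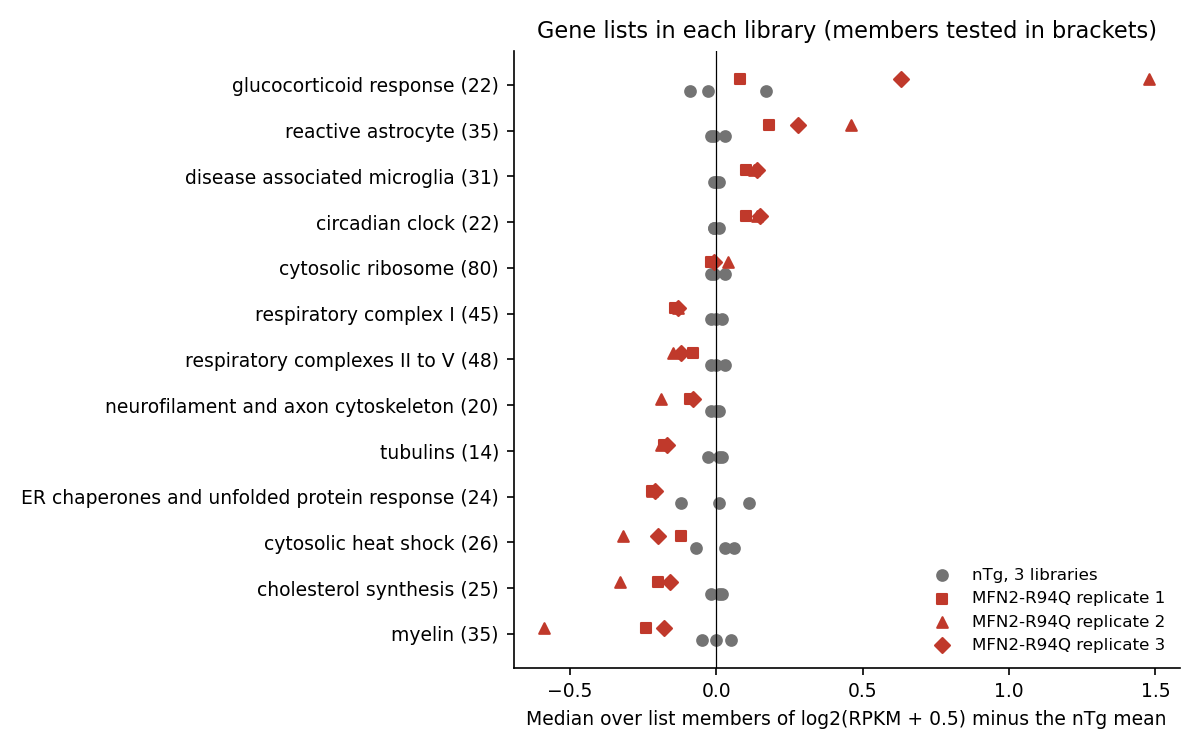
Points give the median over the tested members of a list of log2(RPKM + 0.5) minus the nTg mean, for each nTg library (grey circles) and for MFN2-R94Q replicates 1, 2 and 3 (red squares, triangles and diamonds). Complex I genes, tubulins and endoplasmic reticulum chaperones lay at nearly the same median in the 3 MFN2-R94Q animals, whereas the glucocorticoid list ranged from 0.08 to 1.48 and the myelin list from -0.59 to -0.18.

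Glucocorticoid response genes were the list most unlike between animals. Of 22 members 6 were higher and 1 lower, at a median of 0.78, but that median was 0.08 in replicate 1, 1.48 in replicate 2 and 0.63 in replicate 3, and it ranged from -0.09 to 0.17 in the nTg libraries. Plin4, a lipid droplet coat protein, was at 2.46, 2.19 and 1.60 RPKM in nTg and 10.7, 51.9 and 11.4 in MFN2-R94Q. All 3 animals were higher, and the fitted rise was 7.47-fold, or 4.51-fold without replicate 2. Sult1a1, a sulfotransferase, rose 3.27-fold, from 2.32 to 2.66 RPKM to 5.55, 17.4 and 7.68. Hsd11b1, the enzyme that regenerates active glucocorticoid inside cells, was lower in all 3 animals (22.0, 22.4 and 19.6 RPKM against 17.0, 14.4 and 15.0). Without replicate 1 of MFN2-R94Q the higher calls were 16, and without replicate 2 the median was 0.35.

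A further set of genes was high mainly in MFN2-R94Q replicate 2. Cdkn1a, an inhibitor of the cell cycle, was at 10.9 to 12.9 RPKM in nTg and at 11.1, 91.8 and 18.8 in MFN2-R94Q, so replicate 1 lay within the nTg range and the gene did not pass (adjusted p = 0.13). Sgk3, a kinase, was at 13.8 RPKM in replicate 2, 3.18 and 3.32 in the others and 2.34 to 2.84 in nTg. Sgk3 did not pass either (limma adjusted p = 0.1). Pnpla2, the lipase that starts the breakdown of stored fat, was at 39.2 RPKM in replicate 2, 11.6 and 14.4 in the others and 10.3 to 12.5 in nTg, and Angptl4, an inhibitor of lipoprotein lipase, was at 2.96 against 0.411 and 0.962. Neither passed. Ddc, which makes dopamine and serotonin from their precursors, was at 31.1 RPKM in replicate 2 and 9.99 and 10.2 in the others, but here all 3 exceeded the nTg libraries (3.71 to 5.16), and the rise of 3.04-fold held in every run. Slc2a4, the insulin-dependent glucose transporter, likewise rose in all 3 (3.90, 8.59 and 4.22 RPKM against 1.95 to 2.25), and the insulin receptor gene Insr rose 1.21-fold.

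Clock genes were higher in 8 of 22 cases and lower in none, at a median of 0.15 that was 0.10, 0.14 and 0.15 in the 3 animals. Tef, an output factor of the clock, was the 1 called in every run, at 58.8, 71.1 and 61.9 RPKM against 51.2, 50.8 and 52.0 in nTg. Without nTg replicate 2 the higher calls were 4. The E-box CACGTG, the site of the clock's activators, was in the promoters of 5 of the 18 members with one, 3 of them among the 8 higher members, in 7.15% of all promoters and in 11.6% of those of tested genes. The D-box TTATGNAA was in 2 of the 18, none of them higher members (3.38% of all promoters, 2.54% of those of tested genes). The sterol element CACCCCAC was in 2 of 18 cholesterol synthesis promoters, 1 of the 12 lower members among them (2.87% and 3.81%). The metal response core TGCACNC was in 5 of 13 metallothionein and iron promoters, with 2 of the 4 higher and 1 of the 2 lower members (12.6% and 15.6%). The paired half-site ACANNNTGT was in 3 of 20 glucocorticoid response promoters and in none of the 6 higher members (6.85% and 5.16%). A match is a run of letters and not a measured site.

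Of the innate immune lists, complement had 4 of 18 members higher and 1 lower, and 1 was called in every run, C4b, a component of the classical pathway. It was at 18.5, 21.4 and 22.1 RPKM in nTg and 34.97, 43.7 and 43.1 in MFN2-R94Q, 1.94-fold higher (adjusted p = 0.00087). The higher complement calls were 1 without nTg replicate 1 or MFN2-R94Q replicate 2, 2 without nTg replicate 2 or MFN2-R94Q replicate 3 and 7 without MFN2-R94Q replicate 1. Of 33 interferon response genes 7 were lower and none higher, at a median of -0.16. Only 1 of them was called in every run, 3.0% of the list against 3.4% of all genes: Ifitm3, a membrane protein that blocks virus entry, fell in every run (14.8, 15.9 and 15.5 RPKM against 13.4, 11.5 and 12.5). Without nTg replicate 2, nTg replicate 3 or MFN2-R94Q replicate 2 the lower interferon calls were 3, 1 and 2. Of 41 lysosomal genes 6 were higher and 4 lower; the protease gene Ctss rose 1.22-fold and Hexa, a subunit of the enzyme that degrades gangliosides, fell to 0.738, both in every run. The lysosomal calls were 3 or 4 higher and 2 lower without any 1 nTg library or MFN2-R94Q replicate 2.

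Endothelial genes moved both ways. Of 27 endothelial genes 5 were higher and 7 lower. In every run 2 were higher, the barrier transporter genes Slco1a4 (12.6, 12.4 and 15.5 RPKM against 18.5, 18.6 and 19.3) and Abcg2 (1.18-fold). The 2 lower in every run were the junction gene Cdh5 (0.755) and the surface sialoprotein gene Emcn (0.787). The higher endothelial calls were 3, 2 and 3 without nTg replicate 1, nTg replicate 2 or MFN2-R94Q replicate 2 and 8 without MFN2-R94Q replicate 1, and the lower calls 2 without nTg replicate 2 or 3. Vegfa, the main growth factor of vessels, fell from 20.6, 19.4 and 22.0 RPKM to 14.4, 10.8 and 14.8 (0.648, adjusted p = 0.0029), and its relative Vegfb to 0.817. The pleiotrophin gene Ptn fell to 0.792 and Ntrk2, the receptor of BDNF, rose 1.15-fold. Of 15 pericyte and smooth muscle genes none was called in every run.

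Of 15 genes of insulin-like growth factors, their receptors and binding proteins 2 were lower and 1 (Insr) higher, at a median of 0.03. The 2 lower genes encode binding proteins. Igfbp2 was at 13.6, 12.6 and 14.9 RPKM in nTg and 6.32, 4.77 and 6.64 in MFN2-R94Q (0.448, adjusted p = 0.00087). Igfbp4 fell from 8.02, 11.3 and 7.85 RPKM to 5.62, 3.37 and 4.03. In both genes the groups were apart, which was a condition of their choice. Igfbp2 is also on the meningeal list, where Ptgds, the prostaglandin D synthase of meninges and oligodendrocytes, was higher instead (329, 285 and 334 RPKM against 449, 814 and 549). Of the 26 meningeal and matrix genes the only other member that limma called, in the fit of all libraries, was the collagen gene Col4a2, at 0.819.

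Outside the lists, several genes with the smallest p-values have no shared role. Higher were Glmn, a regulator of ubiquitin ligases (3.96, 3.77 and 3.97 RPKM against 5.57, 5.32 and 5.36), the zinc finger gene Zkscan16 (1.5-fold), the zinc transporter gene Slc30a4 (1.23-fold), the cytochrome P450 gene Cyp3a13 (2.14-fold) and Gli1, a target and effector of hedgehog signalling (2.00-fold). Nupr1, a small stress-induced nuclear protein, rose 1.68-fold and was the 1 gene of the 30 of the ATF4 list called in every run. Lower were Slco3a1, an organic anion transporter (18.5, 19.1 and 18.9 RPKM against 13.5, 12.2 and 14.5), Metrn, a secreted factor that promotes neurite growth (57.5, 63.8 and 60.5 against 41.9, 38.9 and 43.0), the tetraspanin gene Cd82 (0.762) and Impdh1, the limiting enzyme of guanine nucleotide synthesis (0.740). Hist1h4h and the acetyltransferase genes Nat8f3 and Nat8f5 fell to 0.492, 0.402 and 0.478, but these have near-identical copies among which reads may be divided.

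Of 48 genes of other inherited neuropathies 9 were lower and 3 higher, at a median of 0.00, and 5 were lower in every run, among them the neurofilament, connexin, adaptor and formin genes Nefl, Gjb1, Bicd2 and Inf2. Of 33 antioxidant genes 8 were lower and 3 higher; the lower calls were 3, 1 and 4 without nTg replicate 1, 2 or 3, and the higher calls 1 without nTg replicate 2 or MFN2-R94Q replicate 2. The extracellular superoxide dismutase gene Sod3 fell in every run, to 0.834 (5.27, 5.68 and 5.39 RPKM against 4.67, 4.29 and 4.41). Of 25 p53 target and apoptosis genes 5 were higher and 1 lower, and Pmaip1, which promotes cell death at mitochondria, rose in every run, at 1.26-fold; the higher calls of this list were 2 without nTg replicate 2, nTg replicate 3 or MFN2-R94Q replicate 2. Of 21 ependymal and cilium genes 3 were lower and 1 higher (19.0%, against 17.9% of all tested genes). Leaving out 1 library gave 0 or 1 higher and 2 to 4 lower. Foxj1, the master factor of motile cilia, was the 1 called in every run, at 0.829. Of the metal-binding metallothioneins, Mt1 was 1.74-fold and Mt2 1.86-fold higher in the fit of all libraries, but Mt1 was at 388, 779 and 477 RPKM in the 3 MFN2-R94Q animals (nTg, 293 to 315) and neither held in every run.

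Hox genes, which keep the position of a cord segment, were lower in 5 of 31 cases and higher in none. The share called was 16.1%, against 17.9% called and 10.4% lower over all tested genes. In every run 2 were lower, and the lower calls were 3 without nTg replicate 2 and 9 without MFN2-R94Q replicate 1. Hoxc6, which marks motor columns at forelimb level, fell from 9.03, 9.26 and 10.8 RPKM to 6.45, 4.15 and 6.43, and Hoxc5 fell to 0.764. Hoxc10, the lumbar gene, did not pass at 0.932 (adjusted p = 0.25). The markers of other cells in the dissection moved as follows, and their part in the results above was not tested. Sensory ganglion genes summed to 127 to 130 RPKM in nTg and 106 to 114 in MFN2-R94Q, with Scn10a and Trpv1 below the filter. Only 5 of the 15 members were in this sum. Prph and Isl2 among them are also on the motor neuron list, and Prph averaged 38.2 RPKM in nTg and 32.5 in MFN2-R94Q. The summed Schwann cell and nerve root list, 1710 to 1900 against 1550 to 1720 RPKM, was mostly Mbp, and its defining gene Prx was below the filter. Blood genes summed to 237 to 307 RPKM in nTg and to 234, 147 and 292 in MFN2-R94Q, and none was called by limma or had an unadjusted p under 0.05.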

How the data were processed

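Per the labels, stranded TruSeq libraries were made from poly(A) RNA of the lumbar cord. The authors deposited RPKM values for 20888 gene symbols, made with TopHat and Partek 7.17.0918 on mm10, per the submitters' processing notes. Neither the annotation, the rule for reads with several matches nor the use of strand is stated there, which leaves overlapping genes, antisense partners and close copies uncertain. In 25 rows the name had become a date; they were kept in the test but are not named. Transcripts encoded by mitochondrial DNA were not analysed here.

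From these values limma 3.58.1 in R 4.3.3 (eBayes with trend) was fitted to log2(RPKM + 0.5), with genotype as the only term. Replicate numbers follow the order of the records and pair nothing. Each library was taken as 1 mouse; where libraries are not separate animals, the p-values measure technical spread. The fit was checked on simulated data in which each gene had the same spread in all groups. That check does not cover the unequal spread of the MFN2-R94Q animals. Depth was read from short RNA genes, whose low values are whole multiples of 1 read, and the spread between animals includes counting error. The 55 gene lists (1680 symbols, 1511 tested, 103 in more than 1 list), the comparison and the tests were chosen with earlier results of these data known, so a direction already seen there has no independent support here. The genes named were Mfn1 and Mfn2 and leading genes called in every run. These had the smallest p, largest fold or largest RPKM difference in each direction. Their groups also did not overlap, as in 35.7% of all tested genes, and their higher group averaged at least 1 RPKM. So their separation and their calls in every run were conditions of choice. Up to 4 genes of each list called in every run were added, and 10 genes with unequal MFN2-R94Q animals. Other list members were named after their values were seen, as was the ER stress element searched for. Promoters are from RefSeq on GRCm38.p6. Alternatives covered pseudocount, filter, scaling, the libraries fitted, weights, prior, threshold, each library left out and, added after the data were seen, removal of length and GC trends (available for 96.8% of tested genes) and the 6 libraries less MFN2-R94Q replicate 2. Some genes that the rule took are left out of the text.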

Additional observations from a re-analysis of the deposited data

How the results depend on the processing

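The count of calls depended on which libraries set the spread. The 6 libraries alone gave 844 calls (262 higher, 582 lower) and, less MFN2-R94Q replicate 2, 1157 (336 and 821), an alternative added after the data were seen. Library weights gave 1667 higher and 2011 lower. A threshold of 0.01 left 771 (273 and 498) and calling only genes at least 25% higher or 20% lower left 804 (343 and 461). Leaving out 1 library gave 1211 to 2857 calls, 465 to 1262 higher and 746 to 1595 lower; the fewest came without nTg replicate 2 and the most without MFN2-R94Q replicate 1. The causes were not tested. Pseudocount, filter, scaling, prior and the removal of length and GC trends kept both counts within 1.5 times, with 1267 higher and 1278 lower after quantile normalization. Of the 167 genes that the naming rule took, none that limma called changed sign under any alternative tried. Among them 5 that were not called did (Mfn2, Hbb-bs, Hba-a1, Psmb7 and Psmc5). Genes named outside that rule are not in these counts. Of the 167, 58 lost their call at that minimum change, 12 at the threshold of 0.01, 10 in the 6 libraries less MFN2-R94Q replicate 2, 7 in the 6 libraries alone, and at most 7 when 1 library was left out or under the other alternatives. No paired analysis was possible because the labels give the groups no shared replicate numbers. With 3 animals a group, and 1 of 3 MFN2-R94Q animals farther from nTg than the others, small differences are limited by the spread between animals.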
